A study of Homo sapiens with 12 samples.

Results

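Caspase-1 (CASP1) and the genes of the inflammasome pathway were followed across MIA PaCa-2 and Capan-1, 2 established human pancreatic ductal adenocarcinoma lines in which focal adhesion kinase (FAK, gene PTK2) was knocked down with short hairpin RNAs. The set has 10 genes of the 34599 gene names in the deposited array table: the sensors AIM2 and NLRP1, the adaptor PYCARD, the inflammatory caspases CASP1, CASP4 and CASP5, the pore protein GSDMD and the cytokines IL18, IL1A and IL1B. CASP1 was chosen because it was higher with the FAK hairpins in the comparison combined over both lines. The other 9 genes were chosen as members of its pathway, with results of these data known. The members' differences from the control hairpin are therefore given below as values, without a test. All 18 probes carrying these names were taken, and 12 of them, from 8 genes, were detected on at least 2 of the 12 arrays and entered the fits.

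Each line carried a scrambled control hairpin (shCtrl), sh1209 or sh1319, the last 2 directed against FAK, which gave 6 groups with 2 arrays each. The hairpins were expressed from a doxycycline-inducible PLKO.1 vector with puromycin selection. All 6 groups, the controls included, had doxycycline at 50 ng/ml over 96 hours, and the puromycin dose was 3.5 ug/ml in MIA PaCa-2 cultures against 1.5 ug/ml in those of Capan-1. It is not stated in the labels if both arrays of a group stem from cultures grown separately, so the p-values measure the spread between these arrays, which may be technical. The RNA came from whole cultures, in which fewer cells expressing a gene and less RNA per cell cannot be told apart.

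An inflammasome is a protein complex that forms in the cytosol when a sensor such as NLRP1 or AIM2 meets a danger signal. The adaptor encoded by PYCARD links the sensor to pro-caspase-1, which then cleaves itself. Active caspase-1 cuts the precursors of IL-1β and IL-18 into their secreted forms, and it cuts gasdermin D, whose released part opens pores in the plasma membrane. Caspase-4 and caspase-5 recognize bacterial lipopolysaccharide inside the cell and cut gasdermin D as well. Transcription of IL1B is typically low until it is induced, a step called priming, whereas many epithelial cells hold a store of IL-18 precursor. The arrays measured RNA only, not cleavage, secretion or cell death.

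The start sites of the cytokine genes IL1B and IL1A are shown because RNA of both differed between the hairpins in opposite directions in the 2 lines, as described below. RefSeq windows were found for 6 of the 10 members, AIM2, IL1A, IL1B, CASP4, CASP5 and PYCARD, and not for CASP1, IL18, NLRP1 and GSDMD. The 250 bases before each start are printed 5′ to 3′ from GRCh38.p14, minus strand, IL1B at chr2:112836780-112837029 and IL1A at chr2:112784494-112784743. Capitals mark a match to one of 4 motifs searched on both strands: the AP-1 motif TGANTCA, a κB motif GGNNTTTCC, an interferon-response core GAAANNGAA and the TATA motif TATAAA.
IL1B: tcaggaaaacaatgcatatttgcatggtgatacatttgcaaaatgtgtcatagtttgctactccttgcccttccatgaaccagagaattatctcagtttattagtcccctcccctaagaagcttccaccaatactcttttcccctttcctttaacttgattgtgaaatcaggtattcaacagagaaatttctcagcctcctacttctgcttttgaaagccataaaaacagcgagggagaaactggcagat
IL1A: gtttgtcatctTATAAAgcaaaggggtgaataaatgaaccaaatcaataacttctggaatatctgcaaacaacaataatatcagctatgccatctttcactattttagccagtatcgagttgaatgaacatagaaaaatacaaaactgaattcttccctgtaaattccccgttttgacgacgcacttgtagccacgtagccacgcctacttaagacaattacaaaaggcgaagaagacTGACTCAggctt
The IL1A window held TGANTCA, with its first base 12 bases before the start, and TATAAA 239 bases before it, and the IL1B window held none of the 4 motifs. Among all 34943 RefSeq windows of this length, 6.59% held TGANTCA, 5.48% GGNNTTTCC, 6.87% GAAANNGAA and 10.8% TATAAA. These matches describe letters only, and no binding was measured.

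All 12 arrays lay on 1 chip. The median deposited intensity per array was 87.7 to 97, between 16259 and 19814 of the 47228 probes were detected, and the arrays of a group correlated at r = 0.991 to 0.994. PTK2, the targeted gene, was lower with every FAK hairpin by its brighter probe 450253. Its intensities were 773.3 and 708 with shCtrl, 191.8 and 211.8 with sh1209 and 175.1 and 219.1 with sh1319 in MIA PaCa-2. In Capan-1 they were 1178.1 and 1220.5, then 820.9 and 1057.2, then 419.6 and 532.8. On the normalized scale PTK2 with sh1209 fell to 0.211 of shCtrl in MIA PaCa-2 but to 0.654 in Capan-1, and with sh1319 to 0.179 and 0.292. A dimmer PTK2 probe, 2680750, lay between 98.6 and 140.7, and its 4 differences ranged from -0.46 to 0.31 on the log2 scale. Capan-1 expressed all 7 pancreatic epithelial markers checked, including KRT19 and CDH1. MIA PaCa-2 expressed 4 of the 7 in each of its groups, and E-cadherin (CDH1) was not detected on any of its arrays. Of 10 leukocyte markers, no more than 3 were detected on both arrays of any group. The pan-leukocyte marker PTPRC was on both arrays of none. The summed intensity of the list was 1800.9 to 1966.2 in MIA PaCa-2. In Capan-1 it was 6228.1 to 6296.5 with shCtrl, 3557.2 to 4154.4 with sh1209 and 4641 to 5823.8 with sh1319. Lysozyme (LYZ), which epithelial cells also make, supplied most of the Capan-1 sum, with a mean intensity of 4070 at its brighter probe with shCtrl. The part of this list in the members' differences was not tested.

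With the control hairpin, Capan-1 expressed the adaptor PYCARD, GSDMD and higher levels of CASP4 and IL18. In MIA PaCa-2, PYCARD and GSDMD were not above background on any array, whichever hairpin was present. Of the 4 shCtrl arrays, IL1A, AIM2 and CASP1 probe 450491 were detected on 0 and CASP1 probe 7050382 on 1. Of the 12 tested member probes, 8 were higher in Capan-1 than in MIA PaCa-2 and 0 were lower at a limma adjusted p under 0.05, while 19.6% of all tested probes were higher in Capan-1 and 22.5% lower. Of these 8, 4 passed the filter on dim probes only through Capan-1 arrays (GSDMD, both PYCARD probes and CASP4 probe 6100136), so they had to differ. Their values are given without a test, and nothing is read from the count.

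GSDMD, the pore-forming substrate of caspase-1, gave the widest separation. Its intensities were 82.3 and 81.7 in MIA PaCa-2 against 440.5 and 447.3 in Capan-1. The normalized log2 difference was -4.43 ± 0.12 (SE). Since the MIA PaCa-2 value was not above background, the ratio is a bound: GSDMD was at least 15.3-fold higher in Capan-1. Such bounds set the mean of the brighter group against the lowest level that was called detected on each array of the dimmer group, or the probe's own level where that was higher.

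PYCARD, the adaptor that joins sensors to caspase-1, was read by 2 probes. The brighter, 6860687, gave 84.6 and 90.3 in MIA PaCa-2 against 306.1 and 314.5 in Capan-1. It was at least 9.56-fold higher in Capan-1 (log2 difference -3.64 ± 0.11). The dimmer probe, 5570008, gave 82.6 and 84.7 against 104.5 and 113.1, at least 1.44-fold higher in Capan-1.

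CASP4, the lipopolysaccharide-sensing caspase, was expressed in both lines. Its bright probe 3850021 read 465.4 and 510 in MIA PaCa-2 against 1114.1 and 1114 in Capan-1, a log2 difference of -1.34 ± 0.13 (limma adjusted p = 3.9e-06). Probe 6100136 read 94.8 and 93.1 against 122 and 134, at least 2.17-fold higher in Capan-1. Probe 4830242 read 90.9 and 95.4 against 100.7 and 112.5 (difference -0.61 ± 0.20, adjusted p = 0.027), and its call was lost without background correction (adjusted p = 0.051), without the filter on dim probes (0.057) and without either MIA PaCa-2 shCtrl array or Capan-1 shCtrl replicate 2 (0.061 to 0.16). The remaining CASP4 probe, 3180164, was at background throughout.

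IL18, whose product is an interferon-γ-inducing cytokine, was detected on all 12 arrays. It read 2979.2 and 2637.8 in MIA PaCa-2 against 3708.6 and 4280.8 in Capan-1 with shCtrl (log2 difference -0.72 ± 0.12, adjusted p = 0.00039). IL1B was not above background in MIA PaCa-2, at 79.4 and 80.7, and was just above it in Capan-1, at 98.7 and 100.5 (at least 1.11-fold higher, adjusted p = 0.0011). CASP1 did not pass the test between the lines with either probe, with differences of 0.01 (95% interval -0.25 to 0.27) and -0.29 (-0.66 to 0.07). IL1A differed by -0.09 (-0.45 to 0.26) and AIM2 by -0.09 (-0.39 to 0.21). All of these lay at or near background, so small differences could not be seen.

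**Figure D1:**
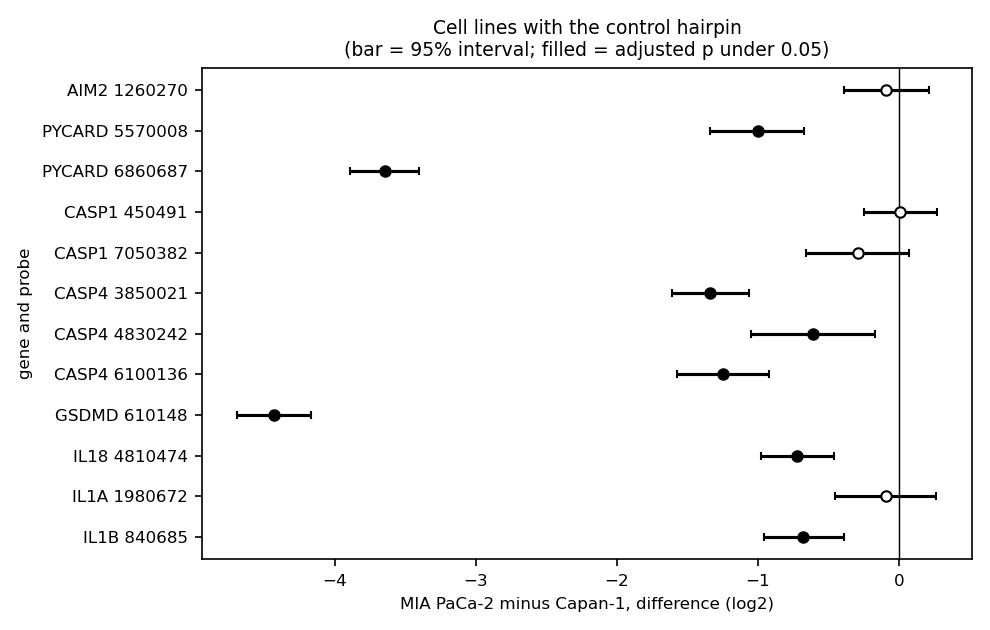
Fitted difference between MIA PaCa-2 and Capan-1 with shCtrl for the 12 tested member probes, on the log2 scale, with 95% intervals (2 arrays a group); filled points have an adjusted p under 0.05. GSDMD (-4.43) and PYCARD probe 6860687 (-3.64) stand farthest to the left, and no member lies clearly to the right of 0. Both PYCARD probes, GSDMD and CASP4 probe 6100136 entered the fit only through Capan-1 arrays.

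The sensors gave little signal. AIM2, which binds cytosolic DNA, was detected on 2 of 12 arrays with probe 1260270, both of them MIA PaCa-2 with sh1209, at 97.8 and 100.5. The other 10 arrays ranged around the same background, with 88.5 and 94.5 in MIA PaCa-2 shCtrl and 90.8 and 96 in Capan-1 shCtrl. AIM2 probe 130753, both NLRP1 probes, the only CASP5 probe, CASP1 probe 6400053 and CASP4 probe 3180164 were not tested. Across all arrays these 6 probes stayed between 74.8 and 101.1. CASP5, which lies beside CASP4 and CASP1, and NLRP1, a sensor best known from skin epithelium, were thus not measurable here.

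**Figure D2:**
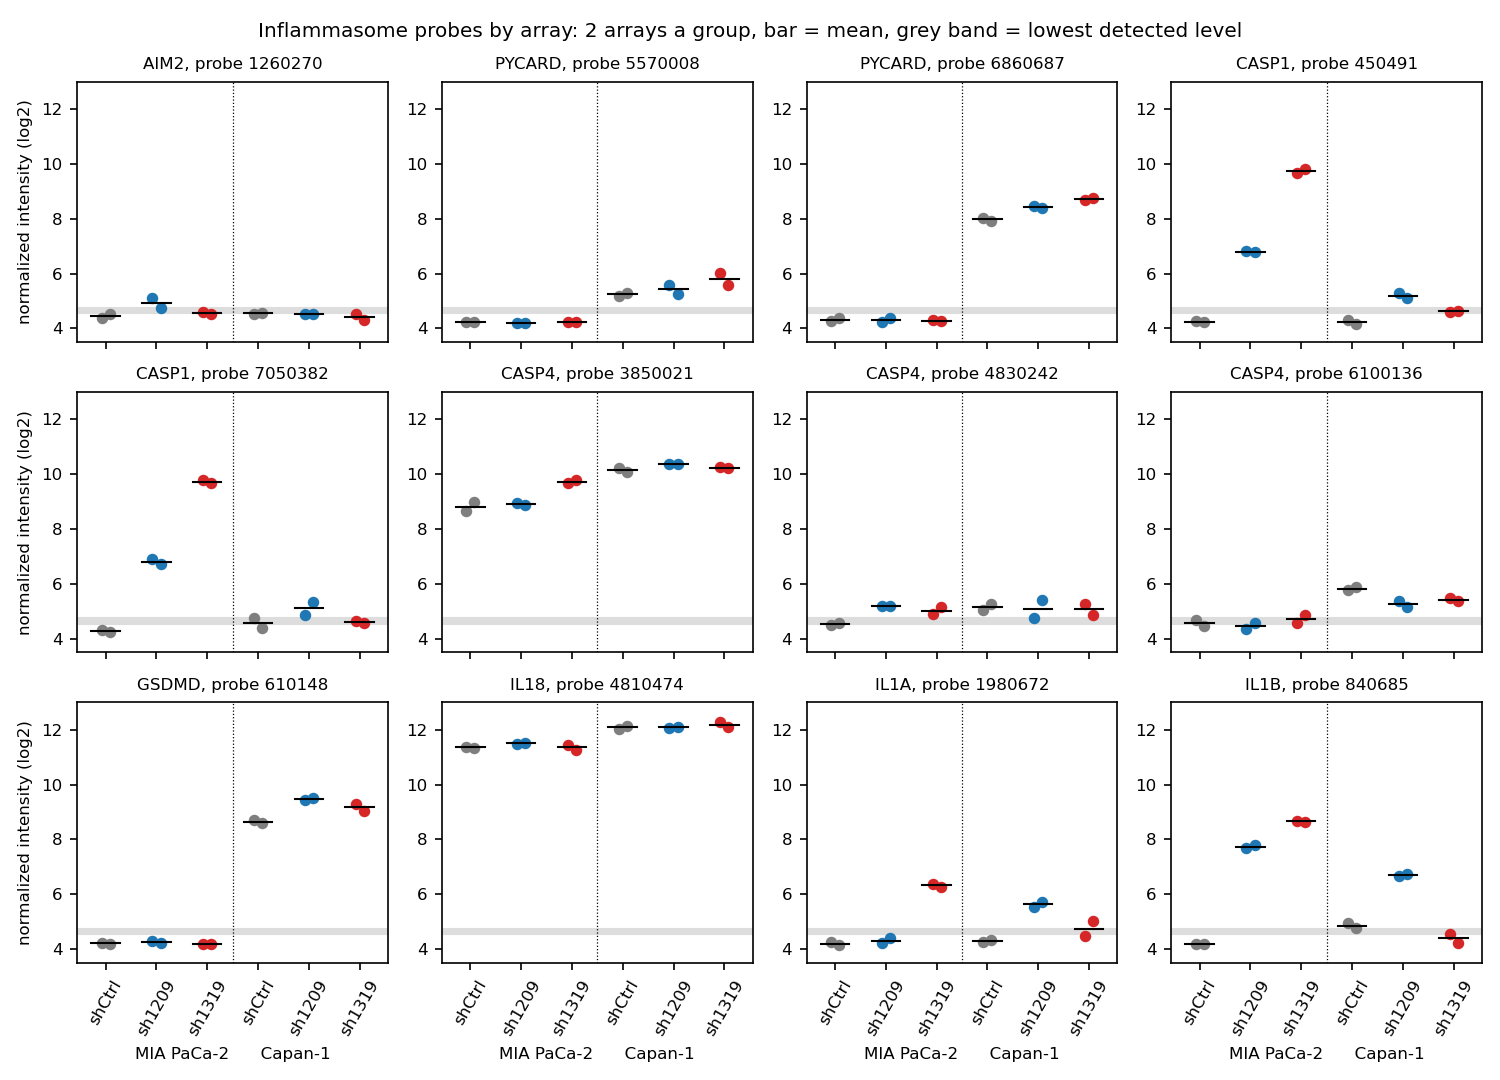
Normalized intensity (log2) of the 12 tested member probes on each of the 12 arrays, 2 per group, with the group mean as a bar; the grey band spans the lowest level called detected on the arrays. CASP1 and IL1B climb over the control in MIA PaCa-2, PYCARD and GSDMD are in the band or below it in all MIA PaCa-2 arrays, and IL18 is far above the band in both lines.

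FAK hairpins were then set against shCtrl, as a description. CASP1 was higher in MIA PaCa-2 with both FAK hairpins and most with sh1319. Probe 450491 read 84.8 and 84.3 with shCtrl, 156.2 and 178.7 with sh1209, and 833.8 and 1142.7 with sh1319. Probe 7050382 read 86.1 and 86.2, then 161.5 and 174.4, then 896.8 and 1057.9. The 3 groups did not overlap with either probe. Against shCtrl, the normalized differences were 2.53 ± 0.12 and 2.51 ± 0.17 with sh1209 and 5.48 ± 0.12 and 5.44 ± 0.17 with sh1319 (log2, SE). Because shCtrl was at background, these are bounds: CASP1 exceeded shCtrl at least 4.23-fold with sh1209, and with sh1319 at least 32.5-fold.

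In Capan-1 the CASP1 signal stayed close to background. Probe 450491 read 85.2 and 80.4 with shCtrl, 110 and 118.4 with sh1209, and 96.9 and 102.4 with sh1319, which placed it at least 1.5-fold and at least 1.01-fold above shCtrl. Probe 7050382 read 95.3 and 91.5, then 99 and 128.9, then 97.3 and 101.3, so that its 2 sh1209 arrays lay far apart. Its differences were 0.52 ± 0.17 with sh1209 and 0.02 ± 0.17 with sh1319.

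IL1B was also higher with both FAK hairpins in MIA PaCa-2. It read 79.4 and 80.7 with shCtrl, 230.9 and 291.2 with sh1209, and 453.6 and 544.2 with sh1319, at least 8.08-fold and at least 15.4-fold above shCtrl. In Capan-1 it read 98.7 and 100.5 with shCtrl, 174.9 and 225.7 with sh1209, and 95.5 and 88.8 with sh1319. The sh1209 arrays were above shCtrl by 1.86 ± 0.13, and the sh1319 arrays were below it by a difference of -0.47 ± 0.13 and no longer above background.

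IL1A, an IL-1 cytokine that needs no caspase-1 cut for activity, was above background at 142.4 and 158.1 with sh1319 in MIA PaCa-2. In Capan-1 it was above background with sh1209, at 118.8 and 147.6. It read 83 and 76.5 with shCtrl and 79.6 and 92.9 with sh1209 in MIA PaCa-2. In Capan-1 it read 82.8 and 89 with shCtrl and 94.1 and 115.8 with sh1319. The 2 groups that stood out were at least 3.06-fold and at least 2.05-fold above their shCtrl.

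PYCARD and GSDMD were higher with both FAK hairpins in Capan-1, where they were expressed. PYCARD probe 6860687 read 306.1 and 314.5 with shCtrl, 406.9 and 509.9 with sh1209, and 471.1 and 610.8 with sh1319, differences of 0.46 ± 0.11 and 0.75 ± 0.11 on the log2 scale. GSDMD read 440.5 and 447.3, then 711.1 and 974, then 666 and 735.4, differences of 0.82 ± 0.12 and 0.52 ± 0.12. With these probes no FAK hairpin group overlapped with shCtrl. PYCARD probe 5570008 read 104.5 and 113.1, then 119.7 and 125.4, then 142 and 142. Its normalized difference with sh1209 was 0.18 ± 0.15, with overlapping values, and with sh1319 0.56 ± 0.15. In MIA PaCa-2 both genes stayed at background with every hairpin, at 80.2 to 92.1 for PYCARD probe 6860687 and 80.9 to 85.6 for GSDMD.

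CASP4 was above its control with sh1319 in MIA PaCa-2. Probe 3850021 read 465.4 and 510 with shCtrl, 478.7 and 556.5 with sh1209, and 829.7 and 1128.6 with sh1319 in MIA PaCa-2. The sh1319 arrays lay above the others (0.91 ± 0.13 against shCtrl). In Capan-1 it read 1114.1 and 1114, then 1268.1 and 1633.2, then 1215.2 and 1477.1, with normalized differences of 0.22 ± 0.13 and 0.09 ± 0.13. The dim CASP4 probes did not follow the bright one. Probe 6100136 differed by -0.58 ± 0.15 with sh1209 in Capan-1, and probe 4830242 by 0.66 ± 0.20 with sh1209 in MIA PaCa-2, where the bright probe differed by 0.09. The 4 IL18 differences from shCtrl lay between -0.01 and 0.15, each with an SE of 0.12.

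Counted over the 12 tested member probes, 5 were higher and 0 lower with sh1209 in MIA PaCa-2 at an adjusted p under 0.05, where 9.05% of all tested probes were higher and 8.99% lower. With sh1319 in MIA PaCa-2, 5 were higher and 0 lower (all tested probes, 12.2% and 12.1%). With sh1209 in Capan-1, 5 were higher and 1 lower (8.14% and 8.69%), and with sh1319 in Capan-1, 3 were higher and 1 lower (6.95% and 6.77%). In the combined comparison 7 were higher and 0 lower (12.5% and 12.7%). CASP1 was picked from this last contrast and several members passed the filter on dim probes only through their FAK hairpin arrays, so nothing is read from these counts. Both hairpins of a line were set against the same shCtrl arrays. The count for sh1209 in MIA PaCa-2 was 3 when any 1 of the 4 arrays compared was left out. That for sh1319 in Capan-1 was 2 without shCtrl replicate 1 and 1 without shCtrl replicate 2.

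**Figure D3:**
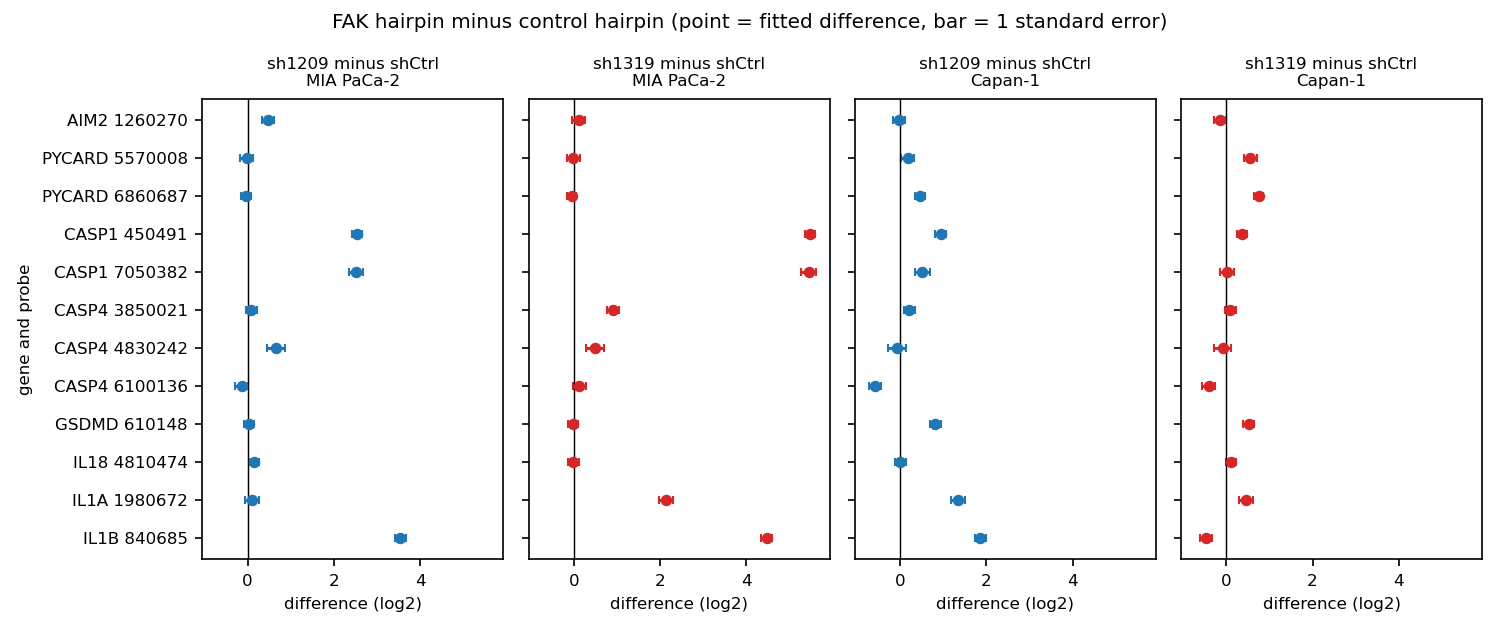
Difference of each FAK hairpin from shCtrl for the 12 tested member probes (log2 scale, bars of 1 SE, 2 arrays a group), 1 panel for each hairpin and line. CASP1 and IL1B lie far to the right in MIA PaCa-2, reaching 5.48 and 4.47 with sh1319, while in Capan-1 the largest difference is IL1B with sh1209 (1.86).

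The FAK hairpins were next compared with each other, a contrast that did not enter the choice of CASP1. In MIA PaCa-2, CASP1, IL1A, IL1B and the bright CASP4 probe were lower with sh1209 than with sh1319. In Capan-1, IL1A, IL1B and 1 of the 2 tested CASP1 probes were higher with sh1209. CASP1 differed by -2.95 ± 0.12 (limma adjusted p = 2.9e-08) and -2.93 ± 0.17 (3.7e-07) in MIA PaCa-2, so the sh1209 level was 0.13 of the sh1319 level with probe 450491. The corresponding PTK2 difference in MIA PaCa-2 was 0.24 ± 0.11 with probe 450253 (adjusted p = 0.17). With the dimmer PTK2 probe 2680750 it was 0.59 ± 0.16 and passed (0.021). IL1A was at least 3.15-fold lower with sh1209 (adjusted p = 4.6e-06), as it did not leave background there. In each line IL1A would have passed the filter on the arrays of the other line alone, with 2 MIA PaCa-2 and 3 Capan-1 arrays detected. IL1B differed by -0.93 ± 0.13 (0.00027), and CASP4 probe 3850021 by -0.82 ± 0.13 (0.00063). The dim CASP4 probes 4830242 and 6100136 gave 0.17 and -0.26 and did not pass. Altogether 5 of the 12 probes were lower and 0 higher, where 11.2% of all tested probes were lower and 11.5% higher.

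In Capan-1, IL1B carried the largest hairpin difference, at least 4.36-fold higher with sh1209 than with sh1319 (log2 difference 2.32 ± 0.13, limma adjusted p = 7.5e-07). IL1A differed by 0.89 ± 0.16 (0.0044). CASP1 differed by 0.58 ± 0.12 with probe 450491 (0.0089), and by 0.50 ± 0.17 with probe 7050382, which did not pass (0.083). The call for probe 450491 was lost without background correction (adjusted p = 0.11) and on leaving out sh1209 replicate 1 (0.093), sh1319 replicate 1 (0.056) or sh1319 replicate 2 (0.054). PTK2 was higher with sh1209 than with sh1319 in Capan-1 by probe 450253, by 1.16 ± 0.11 (6.2e-05). PTK2 probe 2680750 gave -0.00 there (95% interval -0.36 to 0.36). Thus 3 of the 12 probes were higher and 0 lower, where 5.81% of all tested probes were higher and 5.47% lower. PYCARD probe 6860687 (-0.29, 95% interval -0.54 to -0.05), GSDMD (0.30, 0.04 to 0.56), IL18 (-0.10, -0.36 to 0.17) and CASP4 probe 3850021 (0.13, -0.14 to 0.41) did not pass.

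**Figure D4:**
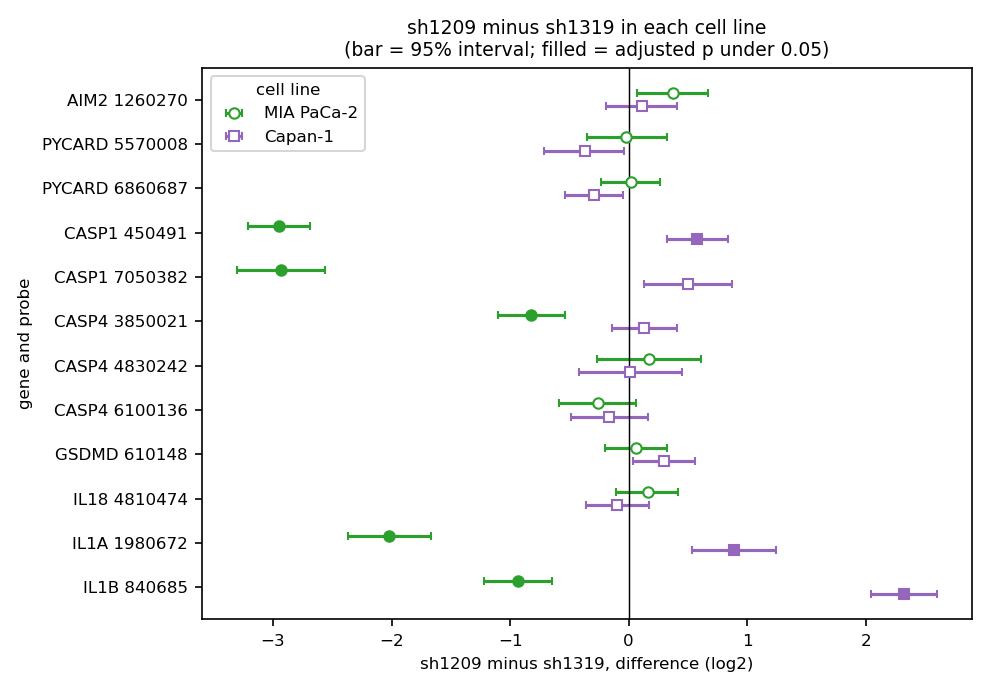
Difference between sh1209 and sh1319 for the 12 tested member probes in MIA PaCa-2 (circles) and Capan-1 (squares), on the log2 scale with 95% intervals (2 arrays a group); filled symbols have an adjusted p under 0.05. CASP1, IL1A and IL1B lie left of 0 in MIA PaCa-2 (-2.95, -2.02 and -0.93) and right of 0 in Capan-1 (0.58, 0.89 and 2.32).

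The difference between the lines was tested directly. Averaged over both hairpins, the FAK hairpin difference from shCtrl in MIA PaCa-2 exceeded that in Capan-1 for CASP1, by 3.35 ± 0.14 (limma adjusted p = 8.2e-08) and 3.70 ± 0.21 (5.4e-07) on the log2 scale, and for IL1B, by 3.31 ± 0.16 (1.4e-07). Of the 4 shCtrl arrays, CASP1 was detected on 0 with probe 450491 and on 1 with probe 7050382. The CASP1 values thus compare signal over background. They fix neither size nor sign of the difference between the rises in RNA. IL1B was at background with shCtrl in MIA PaCa-2, so its value does not fix the size. In this interaction 3 of 12 probes were higher and 2 lower, where 7.24% of all tested probes were higher and 7.11% lower. The 2 lower ones were PYCARD probe 6860687 (-0.64 ± 0.14) and GSDMD (-0.67 ± 0.14), which were detected on 0 of 6 MIA PaCa-2 arrays. A response below background could not be seen there, so these values rest on Capan-1 and no test is read from them. IL1A gave 0.21 (95% interval -0.22 to 0.65) and IL18 0.01 (-0.31 to 0.33). PTK2 itself gave -1.17 ± 0.14 with probe 450253 (limma adjusted p = 0.00021). With probe 2680750 it gave 0.47 ± 0.20, which did not pass (0.15). The part of PTK2 in these values was not tested.

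The difference between sh1209 and sh1319 itself differed between the lines for 5 of the 12 probes, all lower in MIA PaCa-2, where 7.58% of all tested probes were lower and 6.79% higher. This comparison was added after the values were seen, so its p-values are not an independent test. The values were -3.52 ± 0.17 and -3.43 ± 0.24 for CASP1 (limma adjusted p = 2.1e-07 and 3.4e-06) and -3.26 ± 0.18 for IL1B (7.5e-07). For CASP4 probe 3850021 the value was -0.95 ± 0.18 (0.0045). IL1A, counted among the 5, gave -2.90 ± 0.23. It entered the fit only through FAK hairpin arrays, mostly of the groups that make this value negative, so no test is read from it. The hairpin order of IL1A and IL1B ran opposite ways in the 2 lines. For CASP1 most of the value came from MIA PaCa-2, and in Capan-1 1 of its 2 probes passed, in a call that did not hold in every setting. PTK2 gave -0.93 ± 0.16 with probe 450253 (0.0028) in the same comparison. With probe 2680750 it gave 0.59 ± 0.23, which did not pass (0.12). The part of PTK2 in the members' differences was not tested.

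CARD16 lies next to CASP1 on chromosome 11 and encodes a small protein that resembles the recruitment domain of caspase-1. CARD17, listed by RefSeq as the pseudogene CARD17P, lies a few genes further on. CARD16 probe 2030170 read 89.6 and 87.8 with shCtrl, 100.9 and 112.9 with sh1209, and 157.5 and 211.6 with sh1319 in MIA PaCa-2. By this probe CARD16 rose by 0.97 ± 0.13 (limma adjusted p = 0.00029) and 2.44 ± 0.13 (1.4e-07), and in Capan-1 by 0.71 ± 0.13 (0.0029) and 0.44 ± 0.13 (0.04). CARD16 probes 5270725 and 6270500 did not pass with sh1209 in MIA PaCa-2 (0.38 and 0.47, adjusted p = 0.25 and 0.052) and lay between -0.03 and 0.15 in Capan-1. With sh1319 in MIA PaCa-2 they differed by 0.69 and 0.78. CARD17 probe 3930368 read 91.6 and 90.7, then 120.4 and 143.9, then 153 and 184.6 in MIA PaCa-2, differences of 1.67 ± 0.11 and 2.15 ± 0.11, and CARD17 probe 5560270 differed by 0.20 ± 0.17 and 1.02 ± 0.17. In Capan-1 probe 3930368 differed by 0.06 and -0.06. Both CARD17 probes and CARD16 probes 5270725 and 6270500 owed their place in the fit to MIA PaCa-2 arrays with a FAK hairpin, so no test is read from their rises. Like CASP1, CARD16 probe 2030170 was lower with sh1209 than with sh1319 in MIA PaCa-2, by -1.46 ± 0.13 (9.1e-06). CARD16 probes 5270725 and 6270500 both gave -0.31 and did not pass (0.36 and 0.18). CARD17 probe 3930368 gave -0.48 ± 0.11 (0.0093), and CARD17 probe 5560270 gave -0.82 ± 0.17, without a test. These genes are near copies of part of CASP1 and the probe sequences were not used here, so signal shared between them cannot be told apart from RNA of each.

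The other genes of the pathway were taken from 7 lists, which hold 98 genes on the array, 76 of them with a tested probe. Of their 118 tested probes, 17 rose and 17 fell with sh1209 in MIA PaCa-2, 14.4% each beside 9.05% and 8.99% of all tested probes. With sh1319 in MIA PaCa-2, 42 rose (35.6% beside 12.2%) and 7 fell (5.93% beside 12.1%). With sh1209 in Capan-1, 29 rose (24.6% beside 8.14%) and 5 fell (4.24% beside 8.69%). With sh1319 there, 25 rose (21.2% beside 6.95%) and 8 fell (6.78% beside 6.77%). In the combined comparison 36 rose, which is 30.5% beside 12.5% of all tested probes, and 6 fell (5.08% beside 12.7%). Some of these probes also passed the filter only through FAK hairpin arrays. The lists were chosen with earlier results of these data known. Nothing is therefore read from these shares or from those of the single lists below. Genes named from the lists, CARD16 and CARD17 above included, were picked for the largest differences past the threshold in these same comparisons. Their adjusted p-values against shCtrl therefore describe that choice and are not an independent test. The median combined difference of the lists' probes was 0.14 on the log2 scale and that of all tested probes 0.00.

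Priming and receptor signalling, the route by which Toll-like and IL-1 receptors switch on NF-κB, had 9 of 21 probes higher and 0 lower in the combined comparison, 42.9% higher beside 12.5% of all tested probes. With sh1319 in MIA PaCa-2, 12 rose (57.1% beside 12.2%) and 0 fell. NFKBIA, the NF-κB inhibitor that NF-κB itself induces, rose in all 4 pairs of hairpin and line: by 0.63 and 1.14 in MIA PaCa-2 with sh1209 and sh1319, and by 1.77 and 0.59 in Capan-1 (SE 0.13 each, limma adjusted p from 3.6e-06 to 0.0099). TNFAIP3, another NF-κB feedback inhibitor, was above background on no shCtrl array. It entered the fit only through FAK hairpin arrays, so its rises are given without a test. They were largest with sh1209 in Capan-1, 2.34 ± 0.17 or at least 4.79-fold, and 1.04 with sh1319 there. IRAK2, a kinase below the IL-1 receptor, rose by 2.65 ± 0.14 with sh1319 (1.1e-07) and 0.72 with sh1209 in MIA PaCa-2, while its value with sh1319 in Capan-1 was -0.40 (0.075). The NF-κB subunit RELB rose by 1.14, 1.04 and 1.32 in the 3 other pairs and read -0.45 ± 0.23 (0.22) with sh1209 in MIA PaCa-2.

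Interferon-linked regulators had 7 of 19 probes higher and 0 lower in the combined comparison, 36.8% higher beside 12.5% of all tested probes. In Capan-1, 8 rose with sh1209 (42.1% beside 8.14%) and 6 with sh1319 (31.6% beside 6.95%). The guanylate-binding protein GBP2 rose in all 4 pairs, by 1.35 and 2.59 in MIA PaCa-2 and by 1.12 and 0.45 in Capan-1 (SE 0.12 each, limma adjusted p from 5.1e-08 to 0.025). GBP1, a related protein that helps caspase-4 reach lipopolysaccharide, rose by 3.55 ± 0.20 with sh1319 in MIA PaCa-2 (2.7e-07) and read -0.26 with sh1209 (0.44). Its other probe, 6840035, gave 3.07 and -0.01. IFNGR1, a chain of the interferon-γ receptor, rose by 1.22, 1.31 and 0.73 in the 3 other pairs and read 0.10 with sh1209 in MIA PaCa-2 (0.62). IRF7, an interferon-response transcription factor, rose in Capan-1 by 0.71 and 1.04 and differed by -0.01 and -0.09 in MIA PaCa-2. IRF7 probe 1470382 gave 0.33 and 0.42 in Capan-1 and did not pass.

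Among decoy and inhibitor proteins, 5 of 10 probes rose and 1 fell in the combined comparison, 50% and 10% beside 12.5% and 12.7% of all tested probes. Probes of CARD16 and CARD17, some of which passed the filter only through FAK hairpin arrays, were among those that rose. SERPINB1, a protease inhibitor that restrains caspase-1, fell by 0.85 with sh1209, fell by 1.76 with sh1319 in MIA PaCa-2 and fell by 0.48 with sh1319 in Capan-1 (limma adjusted p from 9.3e-07 to 0.019). SERPINB9, the granzyme B inhibitor, rose with sh1209 in MIA PaCa-2, by 1.31 ± 0.17 (0.0003), and its values in the other pairs, from -0.34 to -0.17, did not pass.

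IL-1 family ligands, receptors and antagonists had 4 of 18 probes higher and 2 lower in the combined comparison, 22.2% and 11.1% beside 12.5% and 12.7% of all tested probes. IL1R1, the signalling IL-1 receptor, rose by 0.64 and 1.42 in MIA PaCa-2 (limma adjusted p = 0.0074 and 2e-05) and differed by 0.06 and -0.04 in Capan-1. Its partner chain IL1RAP rose by 0.91 and 2.01 in MIA PaCa-2 and by 0.70 with sh1319 in Capan-1 by probe 4880632 (1.3e-05 to 0.029). IL1RAP probe 940615 did not pass in any pair and read -0.31 ± 0.22 with sh1209 in MIA PaCa-2. The decoy receptor IL1R2 fell by 0.64 with sh1209 in MIA PaCa-2, fell by 1.05 with it in Capan-1 and rose by 0.75 ± 0.19 with sh1319 in MIA PaCa-2 (0.014) by probe 1740451. IL1R2 probe 3990040 also fell with sh1209 in Capan-1 (-0.63, adjusted p = 0.022) and was not detected in MIA PaCa-2, and IL1R2 probe 240441 did not pass. With sh1319 in Capan-1 the log2 means of IL1R2 probes 1740451 and 3990040 were 7.21 and 6.11, below 7.84 and 6.71 with shCtrl. IL37, named IL1F7 on the array and coding for an anti-inflammatory cytokine, rose by 1.16 ± 0.11 with sh1209 in Capan-1 (3e-05) and fell by 0.66 with sh1319 (0.0023).

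Sensors and their regulators had 4 of 12 probes higher and 0 lower in the combined comparison, 33.3% higher beside 12.5% of all tested probes. DPP9, a protease that holds NLRP1 and CARD8 inactive, rose by 1.16 ± 0.11 and 0.65 ± 0.11 in MIA PaCa-2 (limma adjusted p = 3.4e-05 and 0.0015). IFI16, a nuclear DNA sensor, fell by 0.96 with sh1209 in MIA PaCa-2 and rose by 0.96 and 0.97 in Capan-1 (0.0086, 0.0097 and 0.011). CARD8, itself a caspase-1-recruiting sensor, rose by 0.75 with sh1319 in MIA PaCa-2 (0.013), and NEK7, a partner of NLRP3, by 1.24 ± 0.26 with sh1319 in Capan-1 (0.0094).

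The other gasdermins and membrane-rupture genes had 2 of 6 probes higher and 1 lower in the combined comparison, 33.3% and 16.7% beside 12.5% and 12.7% of all tested probes. GSDME, named DFNA5 on the array and coding for another pore-forming gasdermin, fell by 1.36 with sh1209 and fell by 1.15 with sh1319 in MIA PaCa-2 (limma adjusted p = 0.00017 and 0.00034) and differed by 0.12 and -0.15 in Capan-1. NINJ1, which mediates rupture of the plasma membrane, rose by 0.76 with sh1319 in MIA PaCa-2 and by 0.81 and 1.29 in Capan-1 (0.00017 to 0.0025). GSDMB rose by 0.71 with sh1319 in MIA PaCa-2 (0.015) and by 0.66 with a second probe, whereas GSDMB probe 5390608 read 0.14 and did not pass.

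Apoptotic caspases and their partners had 5 of 32 probes higher and 2 lower in the combined comparison, 15.6% and 6.25% beside 12.5% and 12.7% of all tested probes. With sh1209 in MIA PaCa-2, 8 fell (25% beside 8.99%). BIRC3, an NF-κB-induced ubiquitin ligase, fell by 2.77 ± 0.12 with sh1209 in MIA PaCa-2 (limma adjusted p = 4.1e-08) and rose by 0.57, 1.04 and 1.13 in the 3 other pairs. CASP9, the initiator of the mitochondrial route, rose by 0.61 and 1.15 in MIA PaCa-2 (0.025 and 0.00037), while CASP9 probe 2340041 read 0.35 and 0.19 and did not pass. MLKL, the effector of necroptosis, rose by 1.12 ± 0.11 with sh1319 in MIA PaCa-2 (1.4e-05) and fell by 0.40 with sh1209 in Capan-1 (0.023) by probe 4560541. In MIA PaCa-2 with sh1319, MLKL probes 2710328 and 5810022 read 0.45 and 0.23 and did not pass. With sh1209 there, these 2 probes had log2 means of 4.48 and 4.61, below 5.37 and 5.31 with shCtrl. Probe 4560541 had 7.35 with sh1209 against 7.52.

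**Figure D5:**
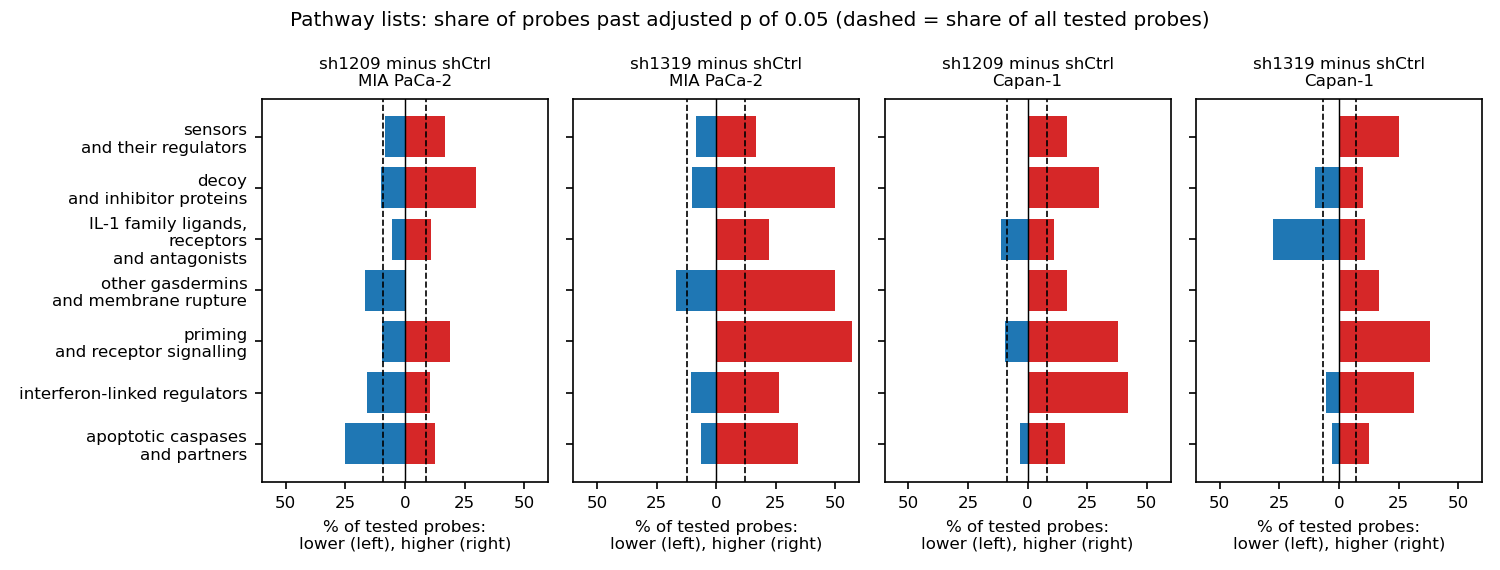
Share of each pathway list's tested probes past an adjusted p of 0.05, higher to the right and lower to the left, for each FAK hairpin against shCtrl in each line; dashed lines give the shares of all 24207 tested probes. Priming and receptor signalling reaches 57.1% higher with sh1319 in MIA PaCa-2, and apoptotic caspases and partners 25% lower with sh1209 in MIA PaCa-2. The lists were chosen with earlier results of these data known, so the shares are a description.

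The pattern of CASP1 over the 6 group means was compared with that of 8812 probes whose group means spanned at least 1 on the log2 scale, using CASP1 probe 7050382. The 6 genes with the highest Pearson correlation were ZNF430 (0.991), SLC35E3 (0.989), PPFIBP1 (0.989), ASCC3 (0.989), NUAK2 (0.987) and ALDH8A1 (0.984). ASCC3, for example, had group means of 5.65, 6.04 and 6.88 in MIA PaCa-2 with shCtrl, sh1209 and sh1319 and 5.63, 5.73 and 5.71 in Capan-1. Its order in MIA PaCa-2 was that of CASP1, over a smaller range. Among the members, IL1B correlated at 0.895 (rank 182) and IL1A at 0.705 (rank 936), whereas PYCARD probe 6860687 and GSDMD gave -0.567 and -0.559. The correlations rest on 6 group means that come from the same 12 arrays, and most of the CASP1 range comes from the group MIA PaCa-2 sh1319.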

How the data were processed

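RNA from the 12 samples was hybridised to Illumina HT-12 arrays. The authors deposited a linear intensity per probe, without normalization, and a detection p-value; the submitters' processing notes name GenomeStudio 2011.1. The table holds 47228 probes beside 92 spike-in controls and 28 columns without values, and 0 columns of per-sample values were left unused. Groups came from the sample labels, with shFAK1319 read as sh1319.

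Background correction used normexp through nec of limma, with negative controls inferred by detection p-value and an offset of 16, and log2 values were then quantile-normalized across arrays. Probes with a detection p under 0.05 on at least 2 arrays were tested (24207). limma 3.58.1 in R 4.3.3 fitted 6 group means, leaving 6 residual degrees of freedom. For each of 10 comparisons, eBayes p-values received Benjamini-Hochberg adjustment over all tested probes. The script was first tested on simulated data. With 2 arrays a group, the number of arrays limits the precision. Intensities near background compress differences, so folds against groups not above background are bounds.

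The members, the 7 pathway lists and the marker lists were chosen with earlier results of these data known. Named genes were all member probes, PTK2, up to 4 genes per list with the largest absolute difference past the threshold in any pair or combined, and the 6 genes most like CASP1; 1 gene that this rule takes is not reported here. Array names were used, and older names of list genes were matched to current ones. Replicate numbers were not taken as pairs, since the deviations of arrays with the same number correlated at only -0.0611 to 0.16. Alternatives were no background correction, offset 50, median scaling, no filter, a detection p under 0.01, a replicate block, leaving out each array, and the methods' Student test.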

Additional observations from a re-analysis of the deposited data

Results flagged for a closer look

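The response to the FAK hairpins, averaged over sh1209 and sh1319, differed between MIA PaCa-2 and Capan-1 by limma's interaction test for CASP1 and IL1B. The value, MIA PaCa-2 minus Capan-1 on the log2 scale, was 3.35 and 3.70 for CASP1 probes 450491 and 7050382 (adjusted p = 8.2e-08 and 5.4e-07) and 3.31 for IL1B (1.4e-07). With shCtrl, CASP1 was at or near background in both lines and IL1B was at background in MIA PaCa-2. The CASP1 values thus fix neither size nor sign of the difference between the rises in RNA. The IL1B value does not fix the size. The interaction value was -0.64 for PYCARD probe 6860687 and -0.67 for GSDMD. Both were at background on every MIA PaCa-2 array and entered the fit only through Capan-1, so no test is read from these values. PTK2 itself gave -1.17 with probe 450253 (0.00021) and 0.47 with probe 2680750, which did not pass (0.15). The part of PTK2 was not tested.

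The difference between sh1209 and sh1319 also differed between the lines when that difference was fitted. Only this comparison was added after the values were seen, and its p-values are not an independent test. The values were -3.52 and -3.43 for CASP1 probes 450491 and 7050382 (limma adjusted p = 2.1e-07 and 3.4e-06) and -3.26 for IL1B (7.5e-07). For CASP4 probe 3850021 the value was -0.95 (0.0045). IL1A gave -2.90. It entered the fit only through FAK hairpin arrays, mostly of the groups that make this value negative, so no test is read from it. Dim CASP4 probes gave 0.16 (4830242) and -0.10 (6100136) and did not pass.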

How the results depend on the processing

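No result changed sign while called under any alternative, and 2441 single values kept their direction and side of the threshold, 86 lost a call, 22 gained one and 39 counts or values moved. The member counts of the interaction (5, range 5 to 6), of the combined comparison (7, range 7 to 8) and of the line difference between hairpins (5 throughout) stayed within 1.5 times their value. For sh1209 in MIA PaCa-2 the count of 5 was 3 without background correction and 3 with median scaling, and 3 to 5 leaving out 1 array. For sh1319 in Capan-1 the count of 4 was 1 to 4 leaving out 1 array. For sh1209 against sh1319 in Capan-1 the count of 3 was 5 with offset 50, where PYCARD probe 6860687 and GSDMD also passed (adjusted p = 0.019 and 0.032). Of the pathway probes, 34 called with sh1209 in MIA PaCa-2 were 19 with median scaling, 34 with sh1209 in Capan-1 were 18 to 35 leaving out 1 array, and 33 with sh1319 in Capan-1 were 16 to 33. The lower counts in Capan-1 came on leaving out either shCtrl array (18 and 21 with sh1209, 17 and 19 with sh1319), sh1209 replicate 2 (18) or sh1319 replicate 2 (16). The cause was not tested.

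The methods' Student test, run on 2 arrays against 2 and adjusted over all probes, called 0 member probes and 0 pathway probes in each of the 4 comparisons with shCtrl and 0 member probes between the hairpins in either line, against 4 in place of 8 between the lines. At an unadjusted p under 0.05 it called 6, 5, 6 and 3 member probes in the 4 comparisons with shCtrl, 5 and 3 between the hairpins, and 8 between the lines. Fits with a replicate block changed no count of members (5, 5, 6, 4 and 7 against shCtrl, 5 and 3 between hairpins, 8 between lines, 5 in the interaction), and the pathway counts were 33, 49, 32, 31 and 43. Signal over background limits CASP1 and IL1A in Capan-1 and AIM2, NLRP1 and CASP5 everywhere, where a change below background could not be seen.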
